A study of Homo sapiens with 4 samples.

Results

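The interleukin 1 (IL-1) family was examined in RNA-sequencing counts of SUM159 cells, a human metaplastic, triple-negative breast cancer line. The family is represented by 10 genes, taken by their symbols in GENCODE release 29: the ligands IL1A, IL1B, IL33 and IL18, the antagonist IL1RN, and the receptor genes IL1R1, IL1RAP, IL1RL1, IL18R1 and IL1R2. All 10 were among the 57500 genes of the count files. The parental group (genotype Parental Control) had 1 library. The NOS2KO group had 3 libraries, 1 from each of the clones numbered 1, 5 and 6. NOS2 encodes iNOS, the inducible nitric oxide synthase. The clones came from cells that received a NOS2 Double Nickase Plasmid, survived puromycin and were picked by iNOS immunoblot and a nitrite/nitrate assay. No plasmid or puromycin is named for the parental cells, so the effects of targeting NOS2, of selection and of clonal origin cannot be told apart. All cells were grown in DMEM with fetal bovine serum and an antibiotic-antimycotic reagent, and no cytokine or drug treatment is named.

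The counts on genes ranged from 90467395 to 122171287 per library, so that 3 counts, taken as the floor of detection, corresponded to 0.0262 to 0.0332 CPM, the count scaled to a common library size after TMM normalization. NOS2 mRNA had 2 counts in parental cells, 3 in clone 1, 1 in clone 6 and 18 in the library labelled clone 5. The parental level was under the floor, so NOS2 mRNA cannot check the knockout, and since counts were highest in a clone, that clone is called by its label throughout. Of the markers of SUM159 cells, all 6 mesenchymal genes listed, among them VIM and CD44, were tested and reached at least 1 CPM, and ESR1, PGR and CDH1 stayed under 1 CPM in all 4 libraries. Of the mesenchymal genes, ZEB1 was lower in each clone (83.7 CPM in parental cells and 39.5 to 57.8 in the clones). VIM, CD44, AXL, FN1 and CAV1 were higher in each (CAV1 at 90.0 and 312 to 527 CPM). Of 8 leukocyte markers, 6 were under 1 CPM in every library. The summed leukocyte level was 18.0 CPM in parental cells and 53.7 to 111 CPM in the clones, nearly all of it PTPRC (4.45 CPM in parental cells and 41.7 to 105 in the clones) and CD14 (12.8 CPM in parental cells and 2.29 to 11.3 in the clones), while LYZ was at most 0.46 CPM. The 3 endothelial markers summed to 16.3 CPM in parental cells and 10.95 to 14.3 CPM in the clones, but PECAM1 was lower in each clone (16.1 CPM in parental cells and 7.06 to 13.9 in the clones) while CDH5 (0.0111, and 0.105 to 3.49) and VWF (0.21, and 0.279 to 3.80) were higher. Summed levels were 3.05 CPM in parental cells and 1.70 to 1.78 CPM in the clones for the 3 genes of smooth muscle and pericytes. RGS5 was lower in each clone (2.29 and 0.619 to 0.959 CPM) and MYH11 higher (0.409 and 0.413 to 0.724). DES had clones on both sides. The 6 luminal genes summed to 570.0 and 845 to 1302 CPM, mostly KRT8 and KRT18, with EPCAM at most 0.284 CPM. KRT8, KRT18 and FOXA1 were higher in each clone (FOXA1 at 2.69 and 4.62 to 24.1 CPM). GATA3 was lower in each (10.5 and 1.61 to 5.37), and EPCAM and KRT19 had clones on both sides. The part of these levels in the results on the IL-1 family was not tested.

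IL-1α and IL-1β are inflammatory cytokines that bind the same receptor, IL1R1, which signals once the accessory chain IL1RAP joins it. The antagonist encoded by IL1RN occupies IL1R1 without signalling, and IL1R2 is a decoy receptor that binds IL-1 but lacks the cytoplasmic signalling domain. IL-33 acts through IL1RL1 (ST2) with the same accessory chain, and IL-18 acts through IL18R1 with IL18RAP. The joined receptors recruit MYD88 and IRAK kinases and activate NF-κB and the JNK and p38 kinases, and cancer cells are known to use IL-1 made by themselves or by neighbouring cells to maintain cytokine secretion.

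The mRNAs of 3 agonist ligands (IL1A, IL1B and IL33), of the IL-33 receptor, of IL18R1 and of IL1RAP were lower in each of the 3 NOS2KO clones than in parental cells. IL18, IL1R1, IL1R2 and IL1RN had clones on both sides of the parental level, which for IL1RN was a single count. Thus 6 of 10 members had parental cells above all 3 clones and none had them below, where 30.5% and 28.6% of all tested genes were in these positions. Of these 6, IL1RL1 passed the filter on low counts through the parental library alone, so its place among them depended on where it was high. The levels of each member in the 4 libraries are shown in the plot of CPM by gene. In bulk RNA, fewer cells that express a gene cannot be told apart from less RNA per cell.

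**Figure D1:**
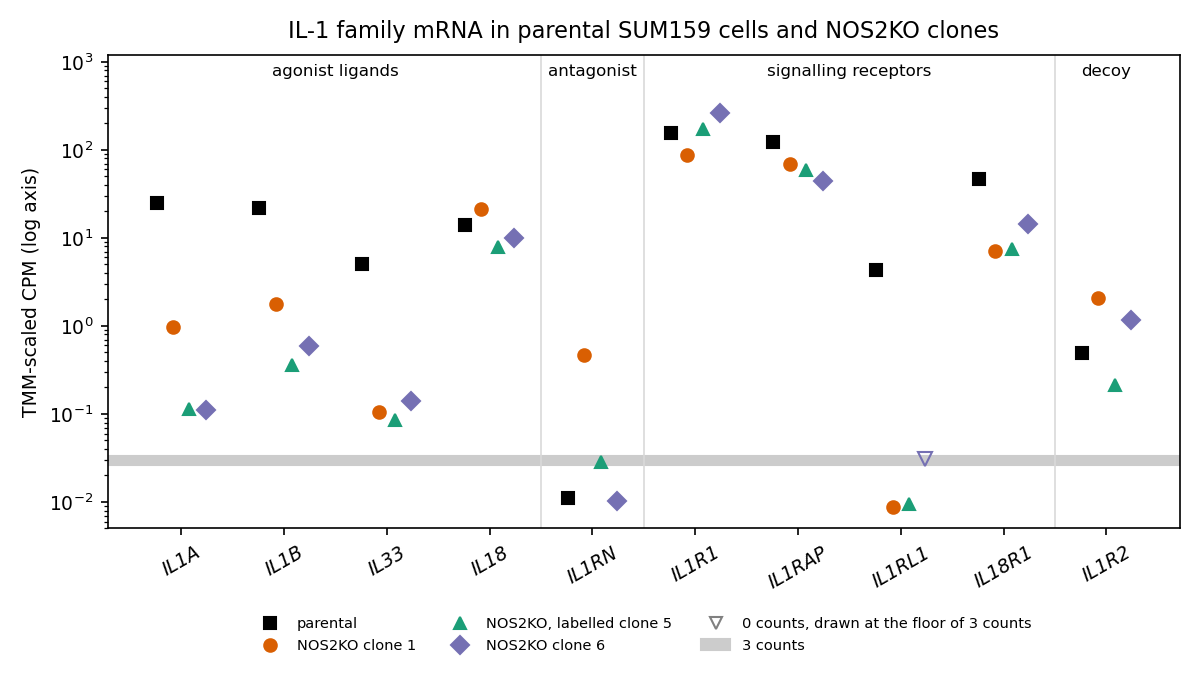
TMM-scaled CPM (log axis) of the 10 genes in the parental library and in each NOS2KO clone, 1 point per library, with the band at 3 counts and an open triangle at that floor for a library with 0 counts. The parental squares lie above all clone points for IL1A, IL1B, IL33, IL1RAP, IL1RL1 and IL18R1, and among the clone points for the other members.

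IL1A (ENSG00000115008, minus strand of chromosome 2, bases 112773915 to 112784590 of GRCh38), which encodes IL-1α, gave 2274 counts in parental cells, 111 in clone 1, 11 in clone 6 and 12 in the library labelled clone 5. On the CPM scale these were 25.2, 0.968, 0.112 and 0.113. All clones were far below the parental library, and clone 1 kept 8.67 times the level of clone 6. The ratio of clone to parental was 26.0-fold lower in clone 1, 225-fold lower in clone 6 and 223-fold lower in the library labelled clone 5. The exact 95% interval of the log2 ratio ran from -4.99 to -4.42 in clone 1 and from -8.82 to -6.97 in clone 6, so clone 1 differed from clone 6 by more than counting error. Leaving out clone 1 moved the fitted log2 fold change of IL1A to -7.79.

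IL1B (ENSG00000125538, minus strand, chromosome 2 at 112829751 to 112836903), the gene of IL-1β, gave 1994 counts in parental cells, 204 in clone 1, 59 in clone 6 and 38 in the library labelled clone 5, or 22.1, 1.78, 0.598 and 0.356 CPM. The levels were 12.4-fold lower in clone 1, 36.9-fold lower in clone 6 and 61.9-fold lower in the library labelled clone 5. As for IL1A, clone 1 was the highest of the clones, and the spread between clones was smaller (4.99 times from lowest to highest). The fitted value for IL1B moved to -5.53 when clone 1 was left out.

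IL33 (ENSG00000137033, plus strand, chromosome 9 at 6215786 to 6257983) encodes IL-33, a nuclear alarmin released from damaged cells. It gave 458 counts in parental cells, 12 in clone 1, 14 in clone 6 and 9 in the library labelled clone 5, or 5.07, 0.105, 0.142 and 0.0844 CPM. Here clone 1 did not stand apart. The 3 clones lay within 1.68 times of each other, with overlapping intervals of the log2 ratio to parental cells (-6.56 to -4.78, -6.04 to -4.40 and -7.05 to -4.97 in the same order).

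IL1RL1 (ENSG00000115602, plus strand, chromosome 2 at 102311502 to 102352037) encodes ST2, the receptor of IL-33, so ligand and receptor of this pair were both lower. Parental cells gave 389 counts (4.30 CPM), clone 1 and the library labelled clone 5 gave 1 count each, and clone 6 gave none. The log2 ratio carried an exact interval of -14.25 to -6.46 in clone 1 and of -14.15 to -6.35 in the library labelled clone 5. In clone 6 the upper end of this interval was -6.84, and the parental level was 141-fold that of 3 counts in that library. All 3 clones were thus under the floor of detection. IL1RL1 shares 95 of its 5746 exon bases with IL18R1 on the same strand, and reads on shared exons may have been left uncounted or assigned to either gene.

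The 250 bases before the RefSeq transcript starts are shown for IL1A, IL1B, IL33 and IL1RL1, with matches to the AP-1 site TGANTCA in capitals. These members had the widest gap between parental cells and clones and were chosen after their levels were seen. AP-1 is the transcription factor family of c-Jun and Fos, and the study plotted its target genes for these libraries. The sequences are on the gene's strand, 5′ to 3′, from RefSeq on GRCh38.p14. For IL1A (chr2:112784494-112784743), IL1B (chr2:112836780-112837029) and IL33 (chr9:6215557-6215806) the start nearest the 5′ end of the counted gene is given. For IL1RL1 both starts are given, the distal (chr2:102311313-102311562) and the proximal (chr2:102337007-102337256).
IL1A: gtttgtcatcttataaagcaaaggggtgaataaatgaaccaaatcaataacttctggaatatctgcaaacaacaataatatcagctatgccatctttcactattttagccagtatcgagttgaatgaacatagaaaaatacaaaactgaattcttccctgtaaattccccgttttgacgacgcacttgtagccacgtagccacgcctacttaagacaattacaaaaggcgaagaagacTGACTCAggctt
IL1B: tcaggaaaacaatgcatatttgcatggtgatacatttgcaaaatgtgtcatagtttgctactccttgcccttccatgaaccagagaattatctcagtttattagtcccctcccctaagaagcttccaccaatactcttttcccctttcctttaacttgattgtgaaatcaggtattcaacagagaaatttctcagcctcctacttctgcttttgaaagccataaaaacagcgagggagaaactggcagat
IL33: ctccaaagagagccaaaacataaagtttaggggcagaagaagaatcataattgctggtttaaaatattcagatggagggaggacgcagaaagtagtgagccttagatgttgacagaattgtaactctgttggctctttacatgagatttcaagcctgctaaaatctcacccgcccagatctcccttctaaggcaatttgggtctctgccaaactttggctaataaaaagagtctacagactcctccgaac
IL1RL1 distal: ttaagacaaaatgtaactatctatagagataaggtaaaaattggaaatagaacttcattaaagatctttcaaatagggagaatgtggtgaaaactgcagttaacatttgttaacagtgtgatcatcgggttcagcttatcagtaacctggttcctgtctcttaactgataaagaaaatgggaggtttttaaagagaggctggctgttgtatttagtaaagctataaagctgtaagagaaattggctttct
IL1RL1 proximal: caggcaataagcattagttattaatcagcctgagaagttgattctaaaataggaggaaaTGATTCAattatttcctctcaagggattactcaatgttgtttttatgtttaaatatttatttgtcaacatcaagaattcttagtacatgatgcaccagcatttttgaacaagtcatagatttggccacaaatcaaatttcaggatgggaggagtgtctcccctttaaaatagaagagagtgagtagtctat

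The IL1A window held TGACTCA at 12 to 6 bases before the start, and the proximal IL1RL1 window held TGATTCA at 191 to 185 bases before it. The windows of IL1B, of IL33 and of the distal IL1RL1 start had no match to these letters. The table of RefSeq windows used here covered 9 of the 10 members, all but IL18, with 19 starts in all, and 4 of these windows, of 3 genes (IL1A, IL1RL1 and IL1RN), held TGANTCA on either strand. The IL1A windows overlap and share the TGACTCA site, so the 4 windows are not independent. IL18R1 and IL1RAP, also lower in every clone, had no match in their windows, while IL1RN, with a match, had clones on both sides of the parental level. Over all 35116 windows of the same length the share with TGANTCA was 6.57%, and the shares were not compared by a test. The κB consensus, searched on both strands, was matched in 2 windows, of IL1R2 and IL18R1, against 9.96% of all windows. The site TGACGTCA had no match in the windows of the members, against 1.65% of all windows. These matches describe the letters in the windows and were not tested for binding.

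IL18 (ENSG00000150782, minus strand, chromosome 11 at 112143251 to 112164117), the agonist that many epithelial cells hold as an inactive precursor, did not follow the other ligands. It gave 1262 counts in parental cells, 2447 in clone 1, 995 in clone 6 and 840 in the library labelled clone 5, or 13.96, 21.3, 10.1 and 7.88 CPM. Clone 1 was 1.53-fold higher than parental cells, and the other clones were 1.38-fold and 1.77-fold lower. The fitted log2 fold change was -0.09, with a standard error of 0.66 and an adjusted p of 0.967 by edgeR's quasi-likelihood test, and it turned positive without clone 6 (0.07) or without the library labelled clone 5 (0.19).

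Divided by exon length, so that genes can be compared, the 4 agonist ligands together had 25.8 CPM per kb in parental cells, 9.18 in clone 1, 4.13 in clone 6 and 3.19 in the library labelled clone 5. IL1A supplied 45.8% of this sum in parental cells and IL1B 27.6%, while IL18 supplied 20.6%. In the clones IL18 supplied 88.4% in clone 1, 93.0% in clone 6 and 93.9% in the library labelled clone 5. The make-up of agonist mRNA thus passed from mainly IL1A and IL1B to mainly IL18, as the stacked bars by library show. In clone 1 part of that came from a higher IL18 level, and in the other clones from the lower IL1A, IL1B and IL33 alone.

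**Figure D2:**
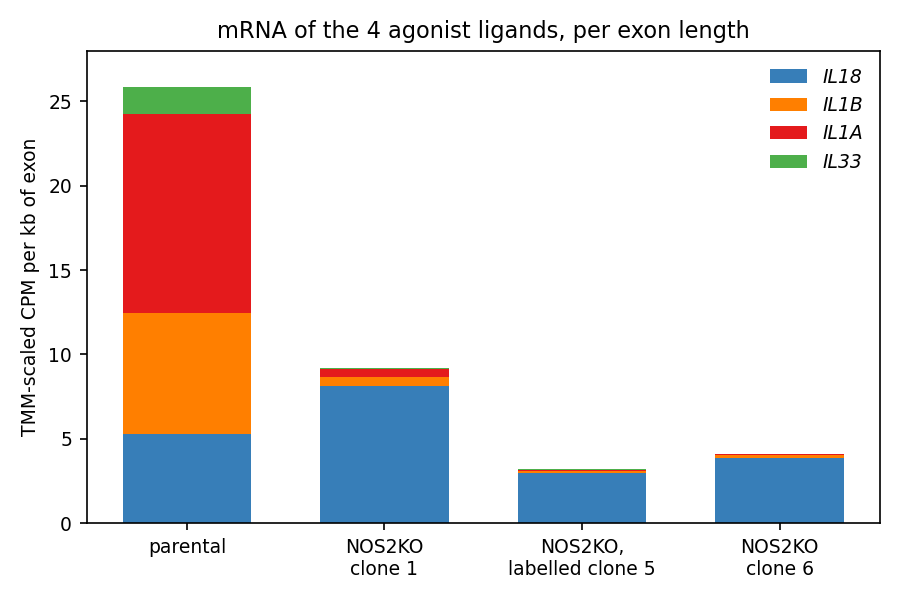
TMM-scaled CPM per kb of exon for IL18, IL1B, IL1A and IL33, stacked by library, 1 library per bar. The parental bar reaches 25.8 CPM per kb and is mostly IL1A and IL1B, and the clone bars reach 3.19 to 9.18 and are mostly IL18.

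The receptors of IL-1 itself stayed well expressed. IL1R1 (ENSG00000115594, plus strand, chromosome 2 at 102064544 to 102179874), the signalling receptor, gave 14167 counts in parental cells, 10074 in clone 1, 25679 in clone 6 and 18401 in the library labelled clone 5, or 157, 87.8, 260.4 and 173 CPM. The parental level lay inside the range of the clones, with clone 1 below it, clone 6 above it and the library labelled clone 5 within 1.10 times of it. The log2 fold change was 0.15, with a standard error of 0.63 and an adjusted p of 0.943, and it was -0.26 without clone 6.

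IL1RAP (ENSG00000196083, plus strand, chromosome 3 at 190514051 to 190659750), the accessory chain shared by the IL-1 and IL-33 receptors, gave 11042 counts in parental cells, 8012 in clone 1, 4426 in clone 6 and 6307 in the library labelled clone 5, or 122, 69.8, 44.9 and 59.2 CPM. It was lower in every clone, by 1.75-fold, 2.72-fold and 2.06-fold in that order. IL1RAP shares 535 exon bases with the noncoding gene AC108747.1, which had no counts in any library. Per kb of exon, IL1R1 stood 2.09 times above IL1RAP in parental cells, 2.05 times in clone 1, 9.47 times in clone 6 and 4.76 times in the library labelled clone 5. The ratio of receptor to accessory chain was therefore near the parental value in clone 1 and higher in the other clones.

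IL18R1 (ENSG00000115604, plus strand, chromosome 2 at 102311529 to 102398775), the IL-18 binding receptor, gave 4228 counts in parental cells, 816 in clone 1, 1438 in clone 6 and 808 in the library labelled clone 5, or 46.8, 7.11, 14.6 and 7.58 CPM. It was lower in each clone, 6.57-fold, 3.21-fold and 6.17-fold in that order, and clone 6 was the highest of the clones. Its partner IL18RAP, needed for IL-18 signalling, gave 13 counts in parental cells and 3 to 21 in the clones, and IL18BP, a secreted protein that neutralises IL-18, had 4.13 CPM in parental cells and 4.99 ± 1.48 (SD, n = 3) in the clones (adjusted p = 0.868).

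The antagonist and the decoy were scarce. IL1RN (ENSG00000136689, plus strand, chromosome 2 at 113107214 to 113134016) gave 1 count in parental cells, 54 in clone 1, 1 in clone 6 and 3 in the library labelled clone 5. Clone 1 alone exceeded the floor (0.471 CPM), and there the log2 ratio to the single parental count was 5.41 with an exact interval of 2.87 to 10.74. IL1R2 (ENSG00000115590, plus strand, chromosome 2 at 101991844 to 102028544) gave 44 counts in parental cells, 240 in clone 1, 114 in clone 6 and 23 in the library labelled clone 5, or 0.487, 2.09, 1.16 and 0.216 CPM. The clones did not share a direction: clones 1 and 6 were 4.30-fold and 2.38-fold higher, and the library labelled clone 5 was 2.26-fold lower. Leaving out clone 1 moved the fitted log2 fold change from 1.24 to 0.49. Per kb of exon IL1R1 exceeded the decoy by 140-fold in parental cells, 18.2-fold in clone 1, 97.7-fold in clone 6 and 347-fold in the library labelled clone 5. Clone 1 thus had the highest antagonist and decoy mRNA and the lowest IL1R1 of the 4 libraries, and the highest IL1A, IL1B and IL18 among the clones.

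Ranked per kb of exon, parental cells had IL1R1 first (22.1 CPM per kb), then IL1A (11.8), IL18R1 (10.7) and IL1RAP (10.6), with IL1B (7.12) and IL18 (5.31) next, and IL33 (1.56), IL1RL1 (0.749) and IL1R2 (0.158) after them. IL1RN, with a single count, was not ranked. With 1 parental library these neighbours have no replicate spread, so the order of close values such as IL18R1 and IL1RAP carries no test. IL1R1 was also first in every clone (12.4 to 36.8 CPM per kb), followed by IL18, IL1RAP and IL18R1 in clone 1 and by IL1RAP, IL18 and IL18R1 in the others. IL1RL1, under 3 counts in every clone, was not ranked there. IL1A moved from rank 2 in parental cells to rank 7 in each clone.

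Tested over the 3 clones together, the differences were sized as follows, with edgeR's quasi-likelihood test and Benjamini-Hochberg adjustment over 22511 genes. Only the clones supply an estimate of spread (2 residual degrees of freedom), moderated over all genes and taken to hold for the single parental library. The p-values thus set the gap to parental cells against that spread. The log2 fold change was -5.97 for IL1A (standard error 1.39, adjusted p = 0.327), -4.59 for IL1B (0.98, adjusted p = 0.310), -5.51 for IL33 (0.61, adjusted p = 0.259) and -2.26 for IL18R1 (0.53, adjusted p = 0.327). For IL1RAP it was -1.08 (standard error 0.35, adjusted p = 0.366). For IL1RL1 the adjusted p was 0.259, and a fold change is not given since the clones were under the floor. IL1R2, at 1.24, had a standard error of 1.26 and an adjusted p of 0.744, and IL1RN, which rests on clone 1, had an adjusted p of 0.642.

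No member had an adjusted p under 0.05 by edgeR's test, and 1 of all tested genes did (0.00444%). The criterion used below takes the limits of the study's volcano plot, a p under 0.05 with a log2 fold change beyond 1 in either direction, and applies them to edgeR's unadjusted p, where the study names a Wald test. By it 6 of 10 members qualified, each of them lower in the clones (IL1A, IL1B, IL33, IL1RL1, IL18R1 and IL1RAP), and all 6 had an unadjusted p under 0.05. Of all tested genes 9.58% met this criterion, 5.34% lower and 4.24% higher, and 11.5% had an unadjusted p under 0.05. With DESeq2's Wald test 5 members had an adjusted p under 0.05, again all lower, against 4.94% of all tested genes in either direction and 2.44% in that one. These were IL33 (adjusted p = 5.42e-11), IL1RL1 (3.70e-09), IL1B (0.000296), IL1A (0.000375) and IL18R1 (0.0098). Over all alternatives with a test the adjusted p ranged up to 0.739 for IL1A and IL1B and up to 0.726 for IL33, IL1RL1 and IL18R1, in each case highest without clone 6, and without DESeq2 the lowest was 0.0579, for IL1RL1. IL1RAP no longer met the criterion without clone 6 (log2 fold change -0.92), without the library labelled clone 5 (-1.07, with an unadjusted p above 0.05) or with upper quartile scaling (-0.98). All 10 members passed the filter on low counts, IL1RL1 through the parental library alone and IL1RN through clone 1 alone, so their passing depended on where they were high. A permutation of 1 library against 3 cannot go below an exact p of 0.25.

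The clones also differed among themselves. In 8 of 10 members the highest clone exceeded the lowest by more than 2-fold, against 44.1% of all tested genes, and the exceptions were IL33 (1.68 times) and IL1RAP (1.56 times). That number includes IL1RL1, where all clones were under the floor. It also includes IL1RN, which passed the filter on low counts through clone 1 alone, so its place there depended on where it was high. The plot of clone ratios sets this spread beside the gap to parental cells. For IL1A, IL1B, IL33, IL18R1 and IL1RAP the gap from parental cells to the nearest clone was wider than the spread between clones, and for IL18, IL1R1, IL1R2 and IL1RN the parental level lay inside it.

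**Figure D3:**
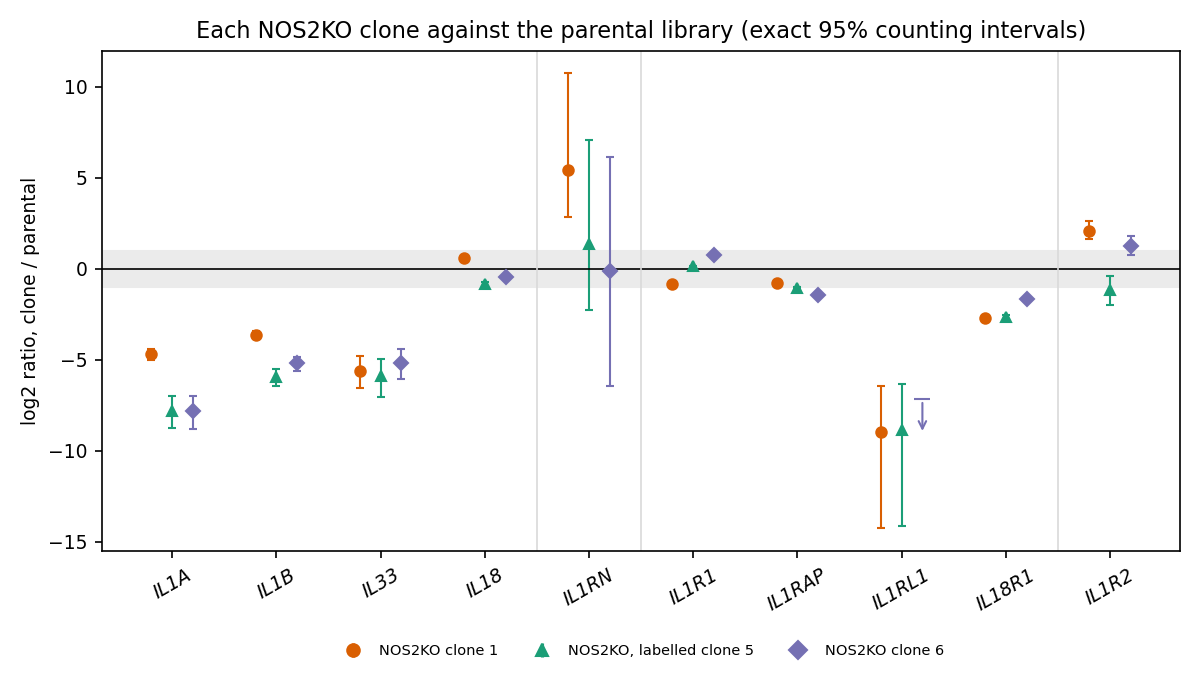
Log2 ratio of each NOS2KO clone to the parental library with exact 95% intervals for counting error, the grey band marking ratios within 2-fold. For IL1RL1 in clone 6, which had no counts, the arrow starts at the ratio that 3 counts would give. All ratios of IL1A, IL1B, IL33, IL1RL1 and IL18R1 lie below the band, and IL18, IL1R1, IL1R2 and IL1RN have clones on both sides of 0.

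Of these genes 7 sit in a pair of gene clusters on chromosome 2, the receptors between IL1R2 and IL18RAP over 461 kb and the ligands between IL1A and IL1RN over 360.1 kb. Within the receptor cluster IL1R2 and IL1R1 did not meet the criterion, IL1RL1 and IL18R1 next to them were lower in all clones, and IL18RAP at the end had a log2 fold change of -0.09. Of the 5 protein-coding genes on each side of this cluster, 1 met the criterion, SLC9A4, a sodium-proton exchanger gene next to IL18RAP (log2 fold change -3.81, adjusted p = 0.306). SLC9A4 gave 64 counts in parental cells and 4 to 8 in the clones. It passed the filter on low counts through the parental library alone, so its being called lower depended on where it was high. The log2 fold changes of all 10 neighbours ran from -3.81 to -0.10. In the ligand cluster IL1A and IL1B, at one end, were lower. Of the neighbours, 9 of 10 were tested, with log2 fold changes from -1.04 (POLR1B, a subunit of RNA polymerase I, adjusted p = 0.419) to 1.36 (CKAP2L), and POLR1B was the one neighbour that met the criterion. For both clusters this is near the 9.58% of all tested genes. Next to IL1A, CKAP2L, a mitotic spindle gene, had 19.3 CPM in parental cells and 94.4 CPM in clone 1. None of the tested neighbours of the ligand cluster had a log2 fold change as low as that of IL1A or IL1B.

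**Figure D4:**
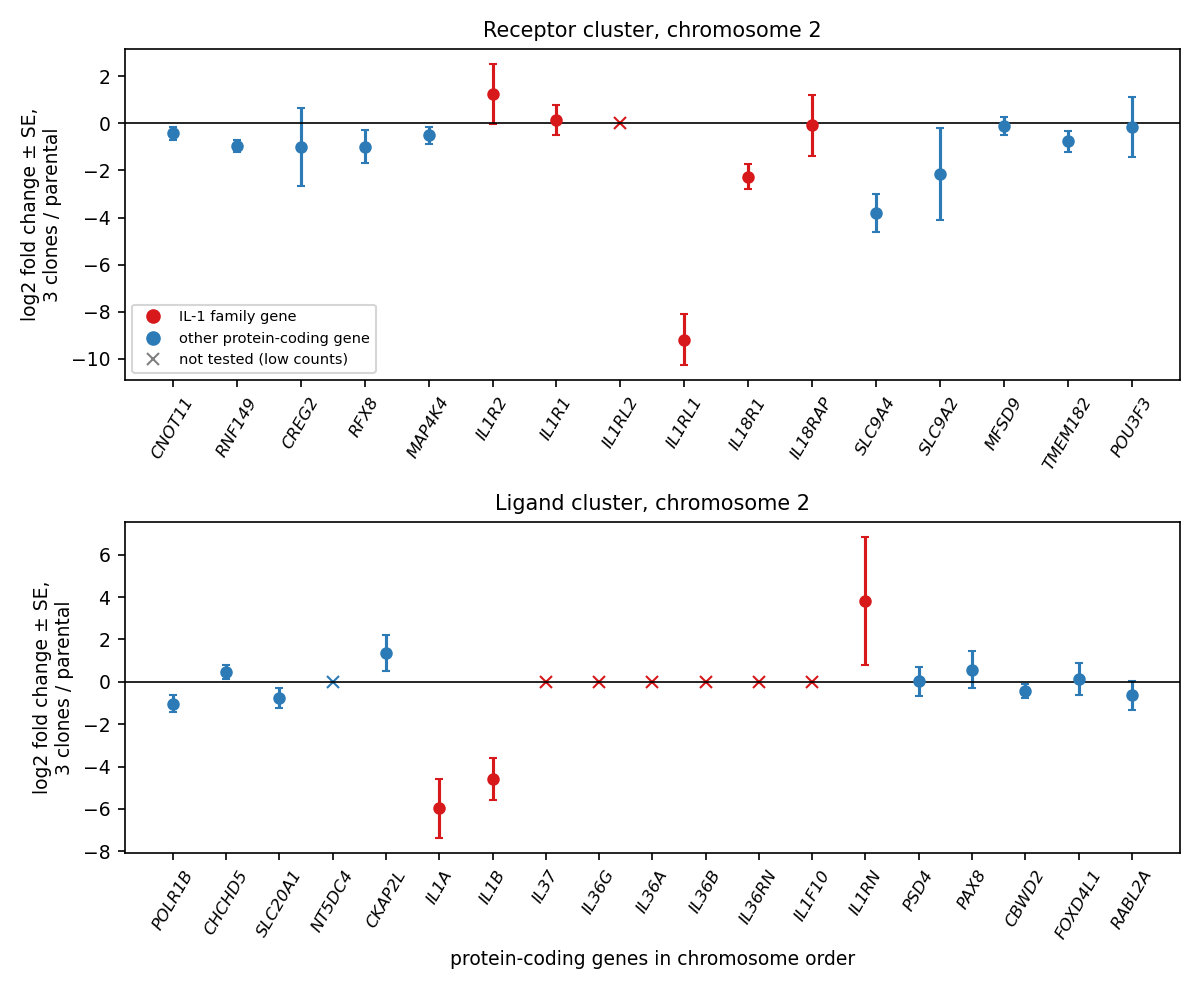
Fitted log2 fold change of the 3 NOS2KO clones over parental cells, with its standard error, for protein-coding genes in chromosome order across both clusters and 5 genes on each side, with crosses for genes not tested. IL1RL1, IL1A and IL1B have the lowest values, followed by SLC9A4 beside IL18RAP and then IL18R1. The value of IL1RL1 rests on clones under 3 counts, and IL1RL1 and SLC9A4 passed the filter on low counts through the parental library alone.

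Of 12 further genes of the family 5 were tested and none met the criterion, where 9.58% of all tested genes did. The ligands of the IL-36 branch and its relatives (IL36A, IL36B, IL36G, IL36RN, IL37 and IL1F10) and the receptor IL1RL2 had at most 10 counts in any library and were not tested. IL36A and IL1F10 had no count in any library. SIGIRR, an inhibitory receptor of the family, was the highest of the 12 per kb of exon in every library, with 7.45 CPM in parental cells and 12.7 ± 2.31 (SD, n = 3) in the clones (log2 fold change 0.77, standard error 0.39, adjusted p = 0.534). IL1RAPL1, a synaptic relative of IL1RAP, had 1.05 and 3.47 ± 1.63 CPM (adjusted p = 0.483). These genes were higher in all 3 clones, as was IL1RAPL2 (adjusted p = 0.548), without meeting the criterion.

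Below the receptors, 1 of 16 tested genes met the criterion, a share near that of all tested genes (9.58%). The number was 3 when clone 1 was left out. The gene was IRAK2, a kinase that sustains IL-1 and Toll-like receptor signalling, with 4656 counts in parental cells, 889 in clone 1, 512 in clone 6 and 501 in the library labelled clone 5 (log2 fold change -3.13, standard error 0.42, adjusted p = 0.259). MYD88, the adaptor of all these receptors, was at 24.3 CPM in parental cells and 45.4 ± 6.28 (SD, n = 3) in the clones (log2 fold change 0.90, adjusted p = 0.402). The median log2 fold change of the 16 genes was -0.15, where that of all tested genes was 0.10.

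Among genes that process or release the ligands, 6 of 16 tested genes met the criterion, 3 lower and 3 higher, where 5.34% and 4.24% of all tested genes did so. Their median log2 fold change was 0.17. The lower genes belong to inflammasomes or to the inflammatory caspases, but others of these kinds did not share the direction. NLRP1, NLRP3, AIM2 and CASP4 had parental cells within the range of the clones. CASP1 was higher in each clone without meeting the criterion. MEFV, the gene of pyrin, had 830 counts in parental cells and 27 to 78 in the clones (log2 fold change -4.18, standard error 0.80, adjusted p = 0.281). NLRC4 had 108 counts and 20 to 21 (log2 fold change -2.61, adjusted p = 0.327), and CASP5 had 11 counts and 1 to 2, under the floor. CASP5 passed the filter through the parental library alone and failed it when any clone was left out, which leaves 5 genes. The higher genes were the calpain subunits CAPN1 and CAPNS1 (log2 fold changes 1.27 and 1.58, both with an adjusted p of 0.332), parts of the protease that cleaves the IL-1α precursor, and S100A13 (1.38, adjusted p = 0.343), a protein known to carry IL-1α out of cells. CASP1, which cleaves the precursors of IL-1β and IL-18, had 39.0 CPM in parental cells and 58.9 ± 16.8 (SD, n = 3) in the clones (adjusted p = 0.617), and its adaptor PYCARD had at most 5 counts in any library. The caspase was thus expressed in all libraries while the adaptor was near the floor.

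Of 20 genes known to be induced by IL-1, 19 were tested and 13 met the criterion, each with a lower level in the clones, where 5.34% of all genes tested did so. Parental cells lay above all 3 clones for 17 of the 19, where they did for 30.5% of all tested genes. The median log2 fold change was -2.43. This list, like the others, was chosen with earlier results of these data known, so its share of lower genes is no independent support. The 13 were the cytokine genes IL6, LIF and CSF3, the chemokine genes CXCL1, CXCL3 and CCL20, the NF-κB regulators NFKBIA, NFKBIZ and TNFAIP3, and ICAM1, PTGS2, SOD2 and ZC3H12A. CSF3 and CCL20 passed the filter on low counts through the parental library alone, so their place among the 13 and among the 17 depended on where they were high. IL6 gave 19846 counts in parental cells, 2641 in clone 1, 543 in clone 6 and 1237 in the library labelled clone 5 (log2 fold change -4.04, standard error 0.79, adjusted p = 0.281). CSF3, the granulocyte growth factor gene, gave 1455 counts in parental cells and 1 to 3 in the clones. SOD2, the mitochondrial superoxide dismutase, was at 2119 CPM in parental cells and 172 ± 93.1 (SD, n = 3) in the clones (log2 fold change -3.62, adjusted p = 0.275). Other signals induce these genes too, and whether IL-1 sets their level in these cells was not tested. Of the 6 tested genes that missed the criterion, CXCL8, CXCL2 and BIRC3 had lower levels in every clone with a wide spread between clones, and their log2 fold changes were -4.01, -2.74 and -2.32 (adjusted p = 0.469, 0.465 and 0.442). CXCL8, the gene of the neutrophil chemokine IL-8, gave 23234 counts in parental cells, 5019 in clone 1, 166 in clone 6 and 272 in the library labelled clone 5. CSF2, MMP1 and MMP3 had log2 fold changes of -0.13, -0.32 and 2.12 with adjusted p values of 0.943, 0.865 and 0.772. The plot of pathway groups places the members beside these lists.

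**Figure D5:**
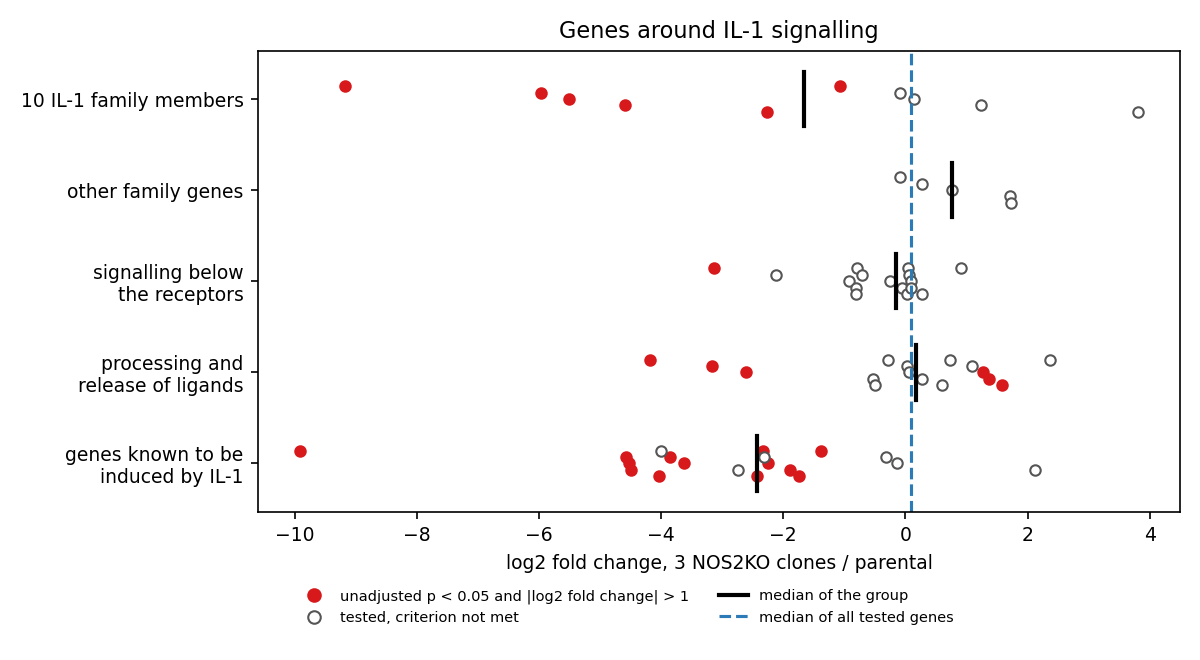
Fitted log2 fold change of the 3 NOS2KO clones over parental cells for each tested gene of the IL-1 family and of 4 lists around it, red where the unadjusted p was under 0.05 and the log2 fold change beyond 1, with the median of each group (black) and of all tested genes (dashed). The members and the genes known to be induced by IL-1 reach furthest to the left, and the signalling genes centre near 0 with IRAK2 apart. The points furthest left, CSF3 and IL1RL1, rest on clones at or under 3 counts and passed the filter through the parental library alone.

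The genes with the most similar pattern were sought among those that reached 5 CPM in any library, by the Euclidean distance between the 3 log2 ratios of clone to parental. The ratios were taken after adding a prior count of 2. With 3 ratios per gene that all share the parental library this is a description only. Nearest to IL1A were the noncoding genes AC034213.1 (distance 0.34 on the log2 scale) and CASC19 (1.21), then COL17A1 (1.46), FGF21 (1.48) and the unnamed gene ENSG00000247844 (1.70). In clone 6 and the library labelled clone 5, AC034213.1 (0.0304 and 0.0188 CPM) and FGF21 (0.0101 and 0.0188 CPM) were at or under the floor. The distances of AC034213.1 and FGF21 to IL1A therefore depend on the prior count. Those of CASC19 (0.071 CPM in clone 6 and 0.0375 in the library labelled clone 5) and COL17A1 (0.0811 CPM in clone 6) may depend on it too. Nearest to IL1B was LIF (0.85), a cytokine of the IL-6 type that the list above also holds, followed by ASB2 (1.17), ERC2 (1.39), AREG (1.40) and RAB39B (1.42). No such genes are given for IL1RL1, since its clone levels were under the floor and its ratios there would be set by the prior count.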

How the data were processed

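Poly(A)-enriched RNA of 1 parental SUM159 culture and 3 NOS2KO clones was sequenced as paired ends, 1 library each. The submitters' processing notes name bcl2fastq 2.17, Trimmomatic 0.36, STAR 2.5.2b, featureCounts of Subread 1.5.2, DESeq2 and GRCh38. The authors deposited raw counts per gene with exon lengths, without normalization; the strand setting is not given in the sources used here. Symbols came from GENCODE release 29, where all 10 members had the same start and end.

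Counts were analysed with edgeR 4.0.16 in R 4.3.3 (filterByExpr, TMM, estimateDisp, glmQLFit and glmQLFTest, 22511 genes kept, Benjamini-Hochberg adjustment), with DESeq2 1.42.0 as an alternative, after tests on simulated data. The standard error came from the information matrix of the fit. Ratios of 2 libraries carry Clopper-Pearson 95% intervals that, like floors, cover counting error only. Python 3.11.15, scipy 1.17.1 and matplotlib 3.10.9 were used. The members, lists and tests were chosen with earlier results of these data known. Named were all members, the list genes that met the criterion or needed mention for their role (the latter chosen after their values were seen), chromosome neighbours and the 5 genes nearest in pattern to IL1A and IL1B.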

Additional observations from a re-analysis of the deposited data

How the results depend on the processing

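With 1 parental library, only changes larger than the spread between clones can be detected, and at under 3 counts a level cannot be ranked. Of the alternatives with a test (scaling, filter, dispersion, DESeq2 and each clone left out), DESeq2's Wald test alone changed the number of members with an adjusted p under 0.05, from 0 to 5, and the cause was not tested. The number meeting the criterion (unadjusted p under 0.05, log2 fold change beyond 1) was 5 with upper quartile scaling, 5 to 6 with a clone left out and 6 otherwise. Upper quartile scaling moved the median log2 fold change of all tested genes by 0.10, from 0.10 to 0.20. For the other family genes the number meeting the criterion was 1 with DESeq2 and 0 to 1 with a clone left out, for the signalling genes 2 with upper quartile scaling, 2 with bias-adjusted quasi-likelihood and 1 to 3 with a clone left out (3 without clone 1), for processing and release 5 to 6 and for genes induced by IL-1 12 to 16. When clones were left out in turn, log2 fold changes spanned -0.26 to 0.47 for IL1R1, -0.63 to 0.19 for IL18 (0.07 without clone 6), 0.49 to 1.75 for IL1R2, -7.79 to -5.52 for IL1A, -5.53 to -4.19 for IL1B and -2.67 to -2.08 for IL18R1. IL1RN was not tested without clone 1 or with a minimum of 1 CPM, since it failed the filter. A clone alone gives log2 ratios but no number by either criterion. In order of CPM without division by length, 2 members changed rank in parental cells. No paired analysis was possible because the groups share at most 1 replicate number and the parental cells have 1 library.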
